A study of Mus musculus with 20 samples.

Results

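The 6 libraries titled Control in a mouse hematopoietic stem cell (HSC) series of 20 samples are described here: 3 RNA-seq libraries with gene counts and 3 ATAC-seq libraries with peak lists. All are labelled as hematopoietic stem cells of 8-week-old wild-type C57BL/6 mice that carry the Vav Cre driver (Vav-CRE:Kdm6b+/+), so the Cre recombinase, which the Vav promoter drives throughout the blood lineages, is present in these controls too. HSCs were sorted as lineage-negative, cKit+, Sca1+, CD150+ and CD48- bone marrow cells. For RNA, marrow of 3 male and 3 female mice was pooled for each of the 3 replicates, which the labels call biological, and 3 to 5 ng of RNA entered a low-input cDNA kit. For ATAC-seq, 10000 sorted HSCs were tagmented for 30 min, and the labels do not tie an ATAC replicate to an RNA replicate of the same number. No other group enters, so the values below are levels, shares and counts with their spread over 3 libraries, and no difference between groups was tested.

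HSCs are the rare marrow cells that renew themselves and give rise to every blood lineage, and at steady state most of them are out of the cell cycle. In ATAC-seq a transposase cuts DNA where nucleosomes leave it free, so that peaks mark open promoters and enhancers. Promoters of broadly used mammalian genes are mostly rich in CpG dinucleotides and are often open whether or not much RNA is made, whereas many promoters of tissue-restricted genes are CpG-poor and open only where the gene is used.

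Counts assigned to genes totalled 6793873, 8831086 and 13797890 in RNA replicates 1, 2 and 3, and 21226, 23465 and 26858 genes had at least 1 count. The libraries agreed most closely between replicates 2 and 3, with a Spearman rho of 0.966 over the 9243 genes of at least 10 CPM (reads of the gene scaled to a common library size), against 0.920 and 0.924 for the pairs with replicate 1. Replicate 1 stood apart: it was more than 2-fold above both others at 103 of these genes and more than 2-fold below both at 221, compared with 48 and 31 genes for replicate 2 and 29 and 19 for replicate 3. The ATAC peak lists held 47450, 44739 and 62125 peaks covering 15.1, 15.7 and 23.9 Mb, so that list 3 was the longest and widest. A CPM is not divided by transcript length, because no transcript lengths were at hand, so that levels of different genes are compared only as read shares.

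The sort markers were read in the RNA. Kit, the stem cell factor receptor and a positive sort marker, had 733, 2055 and 1777 CPM in replicates 1, 2 and 3, and was lowest in replicate 1. Ly6a, which encodes Sca1, had 76.4, 48.5 and 70.0 CPM. Slamf1, which encodes CD150, had 69.2, 66.0 and 65.8 CPM and varied little. Cd48, the negative marker, was low but present with 15.7, 6.62 and 10.2 CPM. Lineage genes ranged widely. Cd3e of T cells had 0, 0 and 0.0696 CPM, and the granulocyte marker Ly6g had 0.721, 0.120 and 0.836. Itgam of myeloid cells had 9.51, 3.01 and 4.32 CPM. Nkg7, a granule gene of NK and T cells, was well above Cd48 with 166, 82.8 and 91.4 CPM. Of the other cell types a marrow sort could hold, the 22 neutrophil and monocyte markers summed to 3968, 1492 and 2466 CPM, highest in replicate 1, and none of the 22 was silent. Ngp, a neutrophil granule gene, had 1130.3, 307 and 573 CPM of that sum. In bulk libraries fewer cells of a type and less RNA per cell cannot be told apart. Kdm6b, the histone demethylase gene deleted elsewhere in the series, had 86.3, 268 and 210 CPM in these controls.

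To set expression beside chromatin, the 36128 genes with a position on the mm10 chromosomes were split into those with no count in any library (11751 genes) and 10 deciles of mean CPM of about 2438 genes each. A gene was said to have an end peak in a list if a peak overlapped the window within 1 kb of either end of its annotated span. Among genes with no count, 7.49%, 6.71% and 9.85% had an end peak in lists 1, 2 and 3. In the lowest decile, where the median level was 0.0232 CPM, the shares were 12.6%, 12.1% and 17.2%. In the top decile, where the median was 164.8 CPM, they were 84.0%, 87.3% and 91.0%. The ranges of the 3 lists did not overlap between these groups: the highest of the 3 shares in the lowest decile lay far below the lowest of the 3 in the top decile.

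The share was not proportional to level but followed a step in the middle of the range. It was 13.9% ± 2.83 (SD over the 3 lists, n = 3) in decile 1, 20.1% ± 4.22 in decile 3 and 27.9% ± 5.30 in decile 4. Between deciles 4 and 7 it passed from 27.9% through 43.2% ± 6.33 and 63.6% ± 6.44 to 77.9% ± 5.29, while the median level went from 0.321 to 13.4 CPM. From decile 8 (median 30.1 CPM) upward it changed little, with 86.0% ± 4.21, 85.9% ± 3.86 and 87.4% ± 3.49. Within each list decile 10 still lay slightly above decile 8, with 84.0% against 82.0%, 87.3% against 85.7% and 91.0% against 90.4% in lists 1, 2 and 3. The share of genes with an end peak in all 3 lists followed the same course, from 6.81% in decile 1 to 31.3% in decile 5 and 81.6% in decile 10. Protein-coding genes made up 46.7% of decile 1 and 98.7% of decile 10. With protein-coding genes alone the ends of the range were 17.8% and 87.8%.

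**Figure D1:**
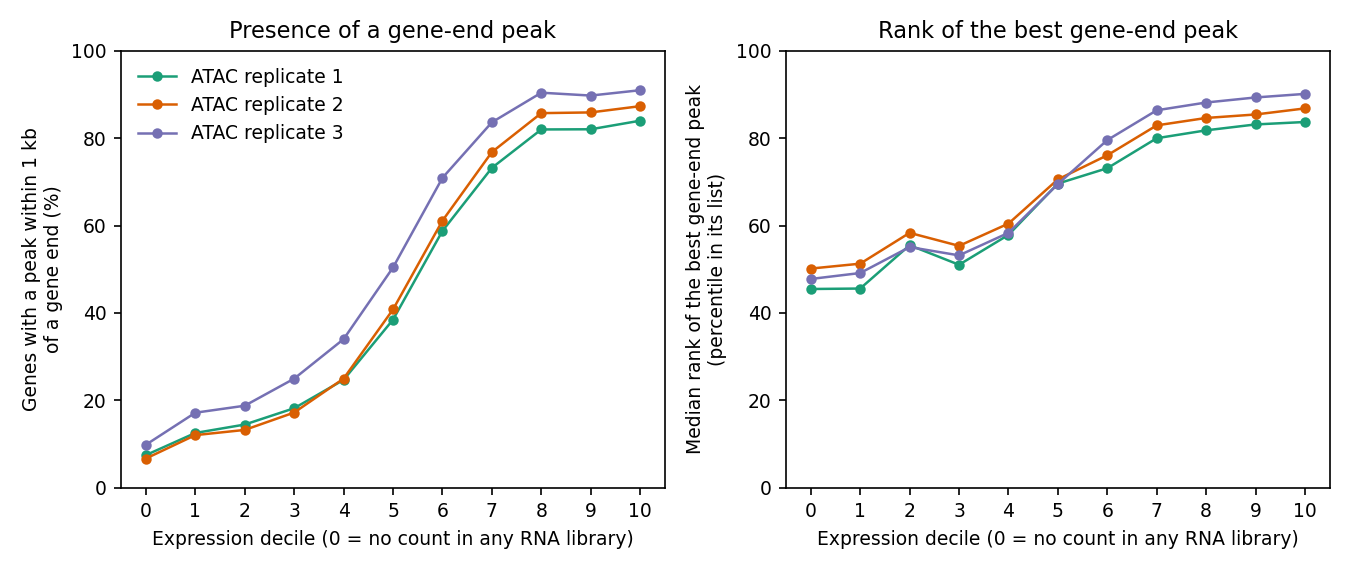
Left, share of genes (%) with a peak within 1 kb of a gene end against expression decile, 1 line per ATAC list; right, median percentile rank of the best such peak in its list. Shares run from 6.71% to 9.85% for genes with no count to between 84.0% and 91.0% in decile 10, with the step between deciles 4 and 7 and list 3 highest throughout; mean ranks run from 47.8 to 86.9.

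Where an end peak was present, it was also stronger at higher levels. Peaks were ranked within their own list by the authors' −log10 q, as percentiles with 100 for the strongest. The best end peak of a gene had a median rank of 48.7 ± 2.87 in decile 1, near the middle of its list, 69.9 ± 0.591 in decile 5 and 86.9 ± 3.22 in decile 10. The median width of that peak was 327 bp ± 42.2 in decile 1 and 566 bp ± 80.0 in decile 10. Peaks of the top 10% of their list lay at the ends of 1.49% ± 0.103 of decile 1 genes and 36.9% ± 8.76 of decile 10 genes. Across genes that had both an end peak and a count, the Spearman rho of mean CPM with rank was 0.272 (11906 genes), 0.301 (12315) and 0.396 (13920) in lists 1, 2 and 3. These are descriptions over genes that share the same RNA libraries.

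The peak at the start of the gene carried the relation. For the 20122 genes whose strand could be read from the RefSeq promoter table (GRCm38.p6, the assembly of mm10), a peak within 1 kb of the annotated start was present for 12.5% ± 2.44 in decile 1 and 85.6% ± 3.63 in decile 10. A peak within 1 kb of the other end was present for 5.94% ± 1.55 and 9.81% ± 2.18. The share at the other end was highest in decile 6, with 12.8% ± 2.67, and did not follow the step.

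Gene bodies, meaning the span more than 1 kb from either end, also held more peaks at higher levels. Per gene there were 0.234 ± 0.0493 body peaks in decile 1 and 1.47 ± 0.333 in decile 10, but the median gene was also longer, 3.23 kb in decile 1 and 24.7 kb in decile 10. Per 10 kb of body the numbers were 0.118 ± 0.0248 and 0.320 ± 0.0728. Deciles 1 to 4 lay between 0.118 and 0.133 per 10 kb, decile 5 at 0.183 ± 0.0392, and deciles 6 to 10 between 0.260 and 0.320. List 3 gave the highest densities, 0.404 per 10 kb in decile 10 against 0.281 and 0.276 in lists 1 and 2, but the order of low and high deciles was shared by the 3 lists.

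**Figure D2:**
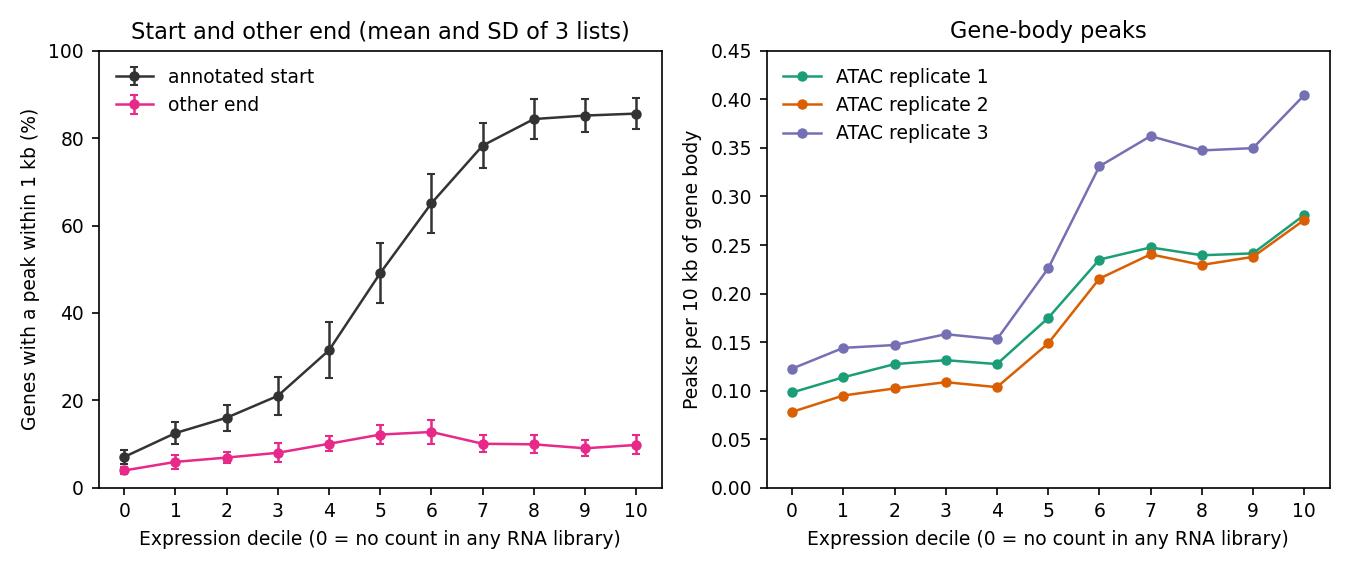
Left, share of genes (%) with a peak within 1 kb of the annotated start or of the other end, mean and SD of the 3 lists, against expression decile; right, peaks per 10 kb of gene body for each list. Starts go from 12.5% in decile 1 to 85.6% in decile 10 while other ends reach at most 12.8%, and body density steps up at deciles 5 and 6 in every list.

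The 10 genes with most body regions were long, with spans of 163 to 1302 kb. Peaks of the 3 lists were merged into 91280 regions, of which 23654 held a peak of every list. Gse1, which encodes a chromatin-associated protein, had the most such regions in its body, 26 in a gene of 353 kb (chr8:120228501-120581383) with 55.5, 34.8 and 51.2 CPM. Pde4d, a cAMP phosphodiesterase gene, had 18 (34.8 CPM ± 4.36) and no end peak in any list. Zmiz1, a transcriptional coregulator gene, had 15 (116 CPM ± 17.8), Hivep3 had 14 and the Notch coactivator gene Maml3 had 13. Igf1r, which encodes the insulin-like growth factor 1 receptor, had 12 with 230, 219 and 174 CPM, and Nav2, Prkag2, Prkce and Sept9 also had 12 each. Among silent genes the most was 6, in Pebp4 (chr14:69840407-70059918) and Tmigd3 (chr3:105870858-105924044), neither of which had an end peak. Tmigd3 had 0, 0 and 0.0696 CPM. Per 100 kb of span it held 11.3 such regions, more than Gse1 with 7.37 or Sept9 with 7.38.

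Read from the chromatin side, the level of a gene went with how many lists shared its end peak. Of 21188 protein-coding genes, 7739 had an end peak in no list, 1871 in 1, 1836 in 2 and 9742 in all 3. Median levels were 0.0464, 0.352, 3.53 and 29.9 CPM in that order. At least 10 CPM was reached by 9.98%, 20.6%, 37.9% and 72.3% of them. Genes with an end peak in 1 or 2 lists thus lay between, and a peak call that recurred went with more RNA.

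**Figure D3:**
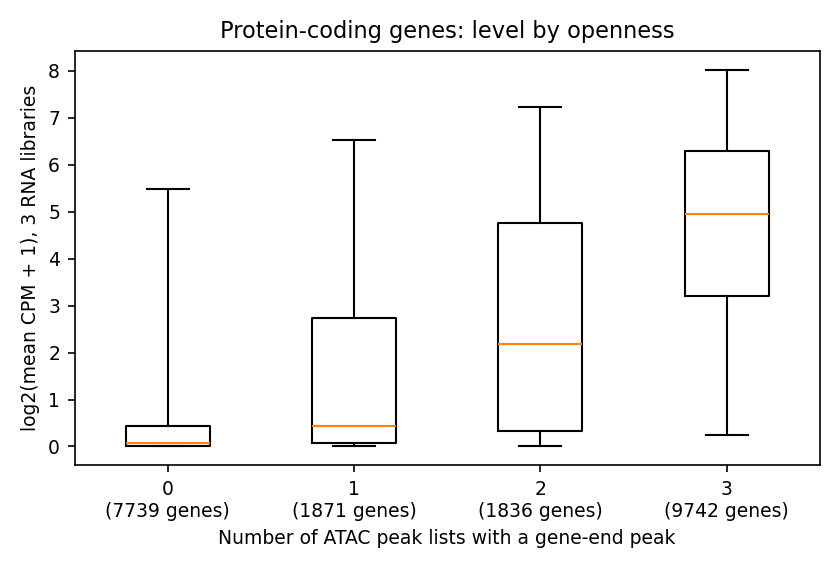
log2(mean CPM + 1) of protein-coding genes by the number of ATAC lists with a gene-end peak; boxes span the quartiles with the median as a line, whiskers the 5th to 95th percentile. Medians correspond to 0.0464, 0.352, 3.53 and 29.9 CPM for 0, 1, 2 and 3 lists, and the whiskers of all 4 groups overlap.

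Peaks at gene ends were the more reproducible ones. Of the regions found in 1 list only, 10.2% lay at a gene end, compared with 19.7% of those in 2 lists and 41.2% of those in all 3. The median width of these regions was 224, 351 and 548 bp. Of the 9754 gene-end regions found in all 3 lists, 71.3% lay at a gene of at least 10 CPM, 16.2% at a gene whose level was between 1 and 10 CPM, and 12.5% where no gene reached 1 CPM. Most end regions therefore stood at genes with RNA in the same sort, and 508 (5.21%) stood where every gene in the window was under 0.1 CPM.

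Promoter sequence, which played no part in the deciles, differed with both level and openness. CpG dinucleotides were counted in the 300 bases around 1 listed start per gene (250 before and 50 after), available for 20122 genes. The listed start nearest the annotated start of the span was taken. It can lie far from that end, as for Gse1 with 260365 bp, so the sequence is not always that at the end peak. The median was 3 CpG for genes with no count and for decile 1, 12 for decile 5 and 22 for decile 10. Within a range of expression the openness also differed by CpG number. Among protein-coding genes under 0.1 CPM, an end peak in all 3 lists was present for 1.78% of 3210 promoters with 0 to 4 CpG, 8.78% of 1014 with 5 to 14 and 19.97% of 621 with 15 or more. Among those of 100 CPM or more the shares were 54.1% of 109, 76.2% of 353 and 85.5% of 1396. Genes with a CpG-rich promoter thus had such an end peak more often at every level. Highly expressed genes with a CpG-poor promoter had one more often than silent genes with a CpG-rich promoter. The peak can lie at either end and need not be at the promoter. Of 270 open but silent protein-coding genes of known strand, 45 had it at the other end in all 3 lists and at the start in none.

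**Figure D4:**
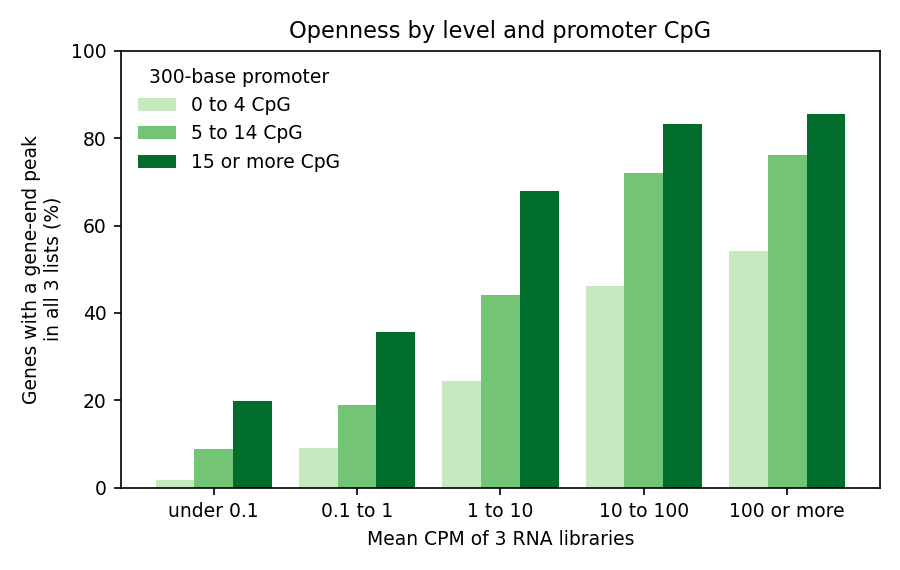
Share of protein-coding genes (%) with a gene-end peak in all 3 ATAC lists, by range of mean CPM and by number of CpG in the 300-base promoter (bars start at 0). The bars go from 1.78% for 0 to 4 CpG under 0.1 CPM to 85.5% for 15 or more CpG at 100 CPM or more, and within each range of CPM the CpG-rich bar is the highest.

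These classes are shown in sequence by 6 promoters, chosen after their values were known. Each line gives the 120 bases directly before the listed start, 5′ to 3′ on the gene's strand, from RefSeq (GRCm38.p6), with every CpG in capitals. Klf6 and Klf2 are CpG-rich and open, Sox1 is CpG-rich and closed, Slamf1 and Pf4 are CpG-poor and expressed, and Umod is CpG-poor, closed and silent.
Klf6 (chr13:5861369-5861488, plus strand): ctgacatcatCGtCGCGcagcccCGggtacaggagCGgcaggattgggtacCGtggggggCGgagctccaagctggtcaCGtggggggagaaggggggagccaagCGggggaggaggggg
Klf2 (chr8:72318942-72319061, plus strand): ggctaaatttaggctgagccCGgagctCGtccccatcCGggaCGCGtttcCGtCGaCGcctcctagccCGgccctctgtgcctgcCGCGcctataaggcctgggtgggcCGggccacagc
Sox1 (chr8:12395399-12395518, plus strand): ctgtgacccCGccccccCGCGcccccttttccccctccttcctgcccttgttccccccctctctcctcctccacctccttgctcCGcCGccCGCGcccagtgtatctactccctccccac
Slamf1 (chr1:171767012-171767131, plus strand): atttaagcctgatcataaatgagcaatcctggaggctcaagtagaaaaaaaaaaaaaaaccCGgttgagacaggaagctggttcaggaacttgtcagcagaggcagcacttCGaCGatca
Pf4 (chr5:90772315-90772434, plus strand): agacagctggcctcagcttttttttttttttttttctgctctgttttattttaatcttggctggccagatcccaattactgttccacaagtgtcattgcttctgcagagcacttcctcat
Umod (chr7:119479263-119479382, minus strand): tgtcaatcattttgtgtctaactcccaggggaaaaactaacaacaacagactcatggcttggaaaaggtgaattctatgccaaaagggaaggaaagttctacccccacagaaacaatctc
Klf6, an early response transcription factor gene, had 75.9, 70.1 and 71.8 CPM with an end peak of mean rank 98.7 in all 3 lists. Klf2, a related factor known for holding lymphocytes in quiescence, had an end peak of almost the same rank, 98.4, but 0.432, 0 and 0.279 CPM. Sox1, a neural transcription factor gene with 37 CpG in its promoter, had no count and no end peak in any list. Slamf1 had 67.0 CPM ± 1.90 and no peak at either end, and Pf4, a platelet chemokine gene with 3 CpG in its promoter, had 66.4, 52.2 and 62.2 CPM with an end peak of mean rank 90.4. Umod, a kidney gene without a CpG in its promoter, had no count and no peak.

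Short motifs, 7 in all, were counted on both strands of the same 300 bases. GGGCGG, the core of Sp and Krüppel-like factor sites, which contains a CpG, was present in 69.0% of promoters of protein-coding genes of at least 10 CPM with an end peak in all 3 lists, 11.2% of those silent with no end peak and 43.6% of all promoters. CCGGAAG, the core of an ETS site, which also contains a CpG, was present in 22.9%, 2.06% and 11.1% in that order. TATAAA was present in 5.89%, 26.7% and 13.1%, and AGATAA, which GATA factors bind, in 5.59%, 16.8% and 10.1%. TGTGGT, a Runx site, was present in 11.7%, 21.1% and 15.5%, and TGANTCA, an AP-1 site, in 3.79%, 11.7% and 7.29%. CCAAT was present in 40.8%, 40.9% and 38.7% and did not separate the classes. The motifs were matched as letters without regard to overlaps, and the classes also differ in CpG number. Motifs with a CpG were the more frequent at open and expressed genes, and those without a CpG, CCAAT aside, at closed and silent ones.

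Open but silent genes, with an end peak in all 3 lists and a mean under 0.1 CPM, numbered 808 of 16730 silent genes (4.83%). They comprised 352 protein-coding genes, 203 lncRNAs, 71 pseudogenes and 182 of other types, and 436 had no count at all, which over the 3 libraries allows up to 0.102 CPM (3 counts, counting error only). Their windows often lay by other genes: 272 (33.7%) had the end of a gene of at least 1 CPM within 2 kb, against 2.92% of the silent genes with no end peak. Of the 352 protein-coding genes 259 had no such neighbour and no overlap with one, and their promoters had a median of 13 CpG, against 2 for silent protein-coding genes with no end peak and 22 for the expressed and open ones. The count depended on its definition: it was 2134 with windows of 5 kb, 285 with a peak on the end base itself, 436 with no count in any library and 1380 with a peak in at least 2 lists. The strand is known for 425 of the 808, and with the annotated start only, which needs the strand, 326 genes were open but silent.

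Among the strongest of them was Il10, which encodes an anti-inflammatory cytokine (chr1:131019845-131024970), with no count and an end peak of mean rank 95.9 that was 545, 581 and 540 bp wide in lists 1, 2 and 3. Mafa, a transcription factor gene of pancreatic beta cells (chr15:75745501-75748321), had no count and a rank of 96.9. Hist1h3f, a histone H3 gene (chr13:23544052-23544954), had 0, 0.241 and 0 CPM and a rank of 96.7, and Pfn3, a testis profilin gene (chr13:55414688-55415232), had 0, 0 and 0.0696 CPM and a rank of 95.3. The peak of Pfn3 lay at the far end of the gene and not at its start, and for Il10, Mafa and Hist1h3f, whose strand was not matched, the end was not told. In each of these the peak was present in every list and the RNA at or near 0 in every library.

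Other strong members included genes that many cell types use, and some of these stood side by side. Pitpnm1, Raver1, Dgcr8 and Trmt2a are listed at 0 in all 3 libraries and had end peaks of mean rank 98.7, 98.0, 96.9 and 94.7. Dgcr8, the partner of Drosha in microRNA processing, lies in chr16:18239979-18348098, where Ranbp1, Trmt2a, Dgcr8 and Tango2 are all listed at 0 and 3 of the 4 had an end peak in all 3 lists. On chr19:4035411-4233634, a stretch of 198 kb from Gstp1 to Pold4, 17 of 19 protein-coding genes are listed at 0, the 19 share 19 counts over the 3 libraries, and 11 had an end peak in all 3 lists. The neighbour before this stretch, Ndufv1, had 166 CPM and the neighbour after it, Ssh3, 38.1 CPM. It holds Ppp1ca, the catalytic subunit of protein phosphatase 1, and Pold4, a subunit of DNA polymerase delta. Between 37.6% and 46.8% of the entries in the count files were alignments that were not unique, which were given to no gene, and the part of these in the stretch was not tested. Of the 141 protein-coding genes open in all 3 lists with no count, 19 lay in the 7 such runs of at least 3 neighbours.

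The opposite class held 875 of the 9243 genes of at least 10 CPM (9.47%), which had no end peak in any list, and 772 of them are protein-coding. Another 7235 (78.3%) had an end peak in all 3 lists. Among genes with the highest levels the class did not vanish: of 2273 protein-coding genes of at least 100 CPM, 173 (7.61%) had none. The promoters of the 772 had a median of 18 CpG, compared with 22 for expressed genes with end peaks. A body peak in any list was present in 82.1% of them (634 genes) against 58.6% of the expressed genes with end peaks in all 3 lists, but their median span was also longer, 33.2 kb against 24.7 kb. Per 10 kb of body they held 0.315, 0.318 and 0.432 peaks in lists 1, 2 and 3, against 0.228, 0.221 and 0.337, and so were the denser in each list. A peak at a start inside the span counts here as a body peak, whereas peaks at the ends of the span are left out. Both body comparisons thus depend in part on how the classes were defined, and neither was recomputed without peaks at inner starts.

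Many calls in this class turned on where the annotated span ends. The promoter table lists starts for 643 of the 772, some inside the span, and a peak lay within 1 kb of a listed start in all 3 lists for 351 and in any list for 393. Without those 393, 379 of the 772 remained, of which 129 had no listed start. Of the 875 genes 206 remained with windows of 5 kb, while asking for a peak on the end base itself gave 2062 and a threshold of 50 CPM gave 367. Actb, which encodes beta-actin and had the highest CPM of all positioned genes (12004, 27886 and 19415), had no end peak but 2 body regions shared by all lists within its 4.86 kb (chr5:142903115-142907976). Adgrg1, an adhesion receptor gene known as a marker of stem cells (chr8:94974756-95014208), had 2563, 3376 and 4054 CPM, no end peak and 4 body regions. The ETS factor gene Fli1 (chr9:32422204-32543432) had 1946, 1736 and 1345 CPM, no end peak and 5 body regions. H3f3b, which encodes the replacement histone H3.3, had 1294 CPM ± 25.9 and 1 body region.

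A smaller set had no peak at all. Of the 772 genes 138 had neither an end peak nor a body peak in any list, with a median of 35.5 CPM. The nearest peak of any list lay within 5 kb for 86 of them, at a median distance of 3.67 kb over the 138. Paics, a purine synthesis gene, had 608, 649 and 619 CPM with the nearest peak at 3.88 kb, and Hspa5, the endoplasmic reticulum chaperone BiP, had 374, 412 and 577 CPM with the nearest at 6.57 kb. Both have CpG-rich promoters, with 27 and 25 CpG.

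At the other end of the list, the genes with the highest CPM were mostly open. Car2, a carbonic anhydrase gene, had 10097, 9136 and 7563 CPM and an end peak of mean rank 88.2. B2m, the light chain of MHC class I, had 3970, 2949 and 3558 CPM with a rank of 96.9, and Rpl4 had 3934, 2960 and 2738 CPM with a rank of 90.5. Malat1, a nuclear lncRNA, varied least of the 10 highest, with 11927, 11126 and 11308 CPM. Srsf2, a splicing factor gene, had 1905, 4903 and 2480 CPM, so that replicate 2 was the highest.

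Gene groups were read against all protein-coding genes, of which 46.0% had an end peak in all 3 lists and whose median was 3.54 CPM. Among the 8896 protein-coding genes of at least 10 CPM the share was 79.2%, which is the nearer background for groups that are mostly expressed. The 20 HSC identity and sort genes were all at 10 CPM or more, with a median of 150.2 CPM, and 11 (55.0%) had an end peak in all 3 lists, 7 in 1 or 2 and 2 (Ly6a and Slamf1) in none. With 1 ATAC list left out, the number open in all remaining lists was 15 without replicate 1, 12 without replicate 2 and 11 without replicate 3. The end peaks of these 20 genes were of middling rank, with a median of 57.2. Hlf, a stem cell transcription factor, had 698, 614 and 623 CPM with a rank of 81.0, and Mllt3, a regulator of HSC maintenance, had 310, 306 and 291 CPM with a rank of 76.5. The endothelial protein C receptor gene Procr had 93.2, 79.0 and 104 CPM with an end peak in 2 lists only.

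Of the 22 stem cell transcription factors, 18 had an end peak in all 3 lists and the median was 129 CPM. Meis1 had 916, 1393 and 1282 CPM with a rank of 83.8. Gata2 had 328, 227 and 307 CPM but an end peak in 1 list only, of rank 18.8, with 32 CpG in its promoter. Runx1, the master regulator of definitive blood formation, had 9 body regions shared by all lists, the most in this group, and Etv6 had 7. At least 1 such region was present in 14 of the 22, compared with 2738 of the 8896 protein-coding genes of at least 10 CPM.

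Early response genes, the Krüppel-like, AP-1, Egr and Nr4a factors and their targets that cells switch on within minutes of a signal, had the highest share of open members of the 19 lists, at low RNA levels. An end peak in all 3 lists was present for 21 of 23 (91.3%), with a median rank of 85.7, at a median of 6.43 CPM, and 10 of the 23 reached 10 CPM. Jun had 25.5, 5.42 and 14.4 CPM with a rank of 97.7, and Fos had 14.3, 4.82 and 4.39 CPM with a rank of 77.9, both highest in replicate 1. Atf3 had no count and an end peak of rank 75.4 in all 3 lists. Nr4a3 had 0.144, 0.120 and 0.139 CPM with a rank of 85.6, and Klf4 had 0.144, 1.69 and 0.418 CPM with a rank of 70.5. Myc, at 310, 654 and 500 CPM, was the highest of the group. Egr2 was the exception, with no end peak and 0.111 CPM ± 0.0380. The median promoter held 27 CpG.

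Developmental transcription factors of other tissues had promoters almost as rich in CpG, with a median of 24, but fewer were open in all 3 lists. Their levels were also lower, with a median of 0.0633 CPM against 6.43 CPM for the early response genes. Of protein-coding genes under 0.1 CPM in the highest CpG class, 19.97% were open in all 3 lists. The share in that class was 67.9% at 1 to 10 CPM. A comparison of both groups at matched levels was not made. Of the 60 developmental factors, 41 were silent, 27 had an end peak in no list, 24 in 1 or 2 and 9 in all 3. The median rank of those with a peak was 28.0. Over all protein-coding genes 28.2% were silent and 36.5% had an end peak in no list. Open in all 3 lists and silent were 6 of them, among which Sox17, Nkx6-1, Lhx2, Foxa1 and Gsc had ranks of 86.2, 88.1, 65.9, 53.5 and 63.0. The peak was at the start in all 3 lists for Nkx6-1 and Foxa1, whereas for Lhx2 and Gsc the peak shared by all 3 lay at the other end. Sox17, a factor of endoderm and of fetal HSCs, had 0.144, 0.120 and 0 CPM. Isl1, with 4.18, 4.09 and 1.74 CPM, had the highest level of the group and was open in all 3 lists. Of 39 Hox genes, 5 were open in all 3 lists (Hoxa3, Hoxa4, Hoxa9, Hoxa10 and Hoxb4), 20 had no end peak and 13 were silent, and no Hoxc or Hoxd gene was open in all 3. Hoxa9 had 73.3, 72.8 and 68.9 CPM, whereas Hoxd10, with 22 CpG in its promoter, had no count and no peak.

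**Figure D5:**
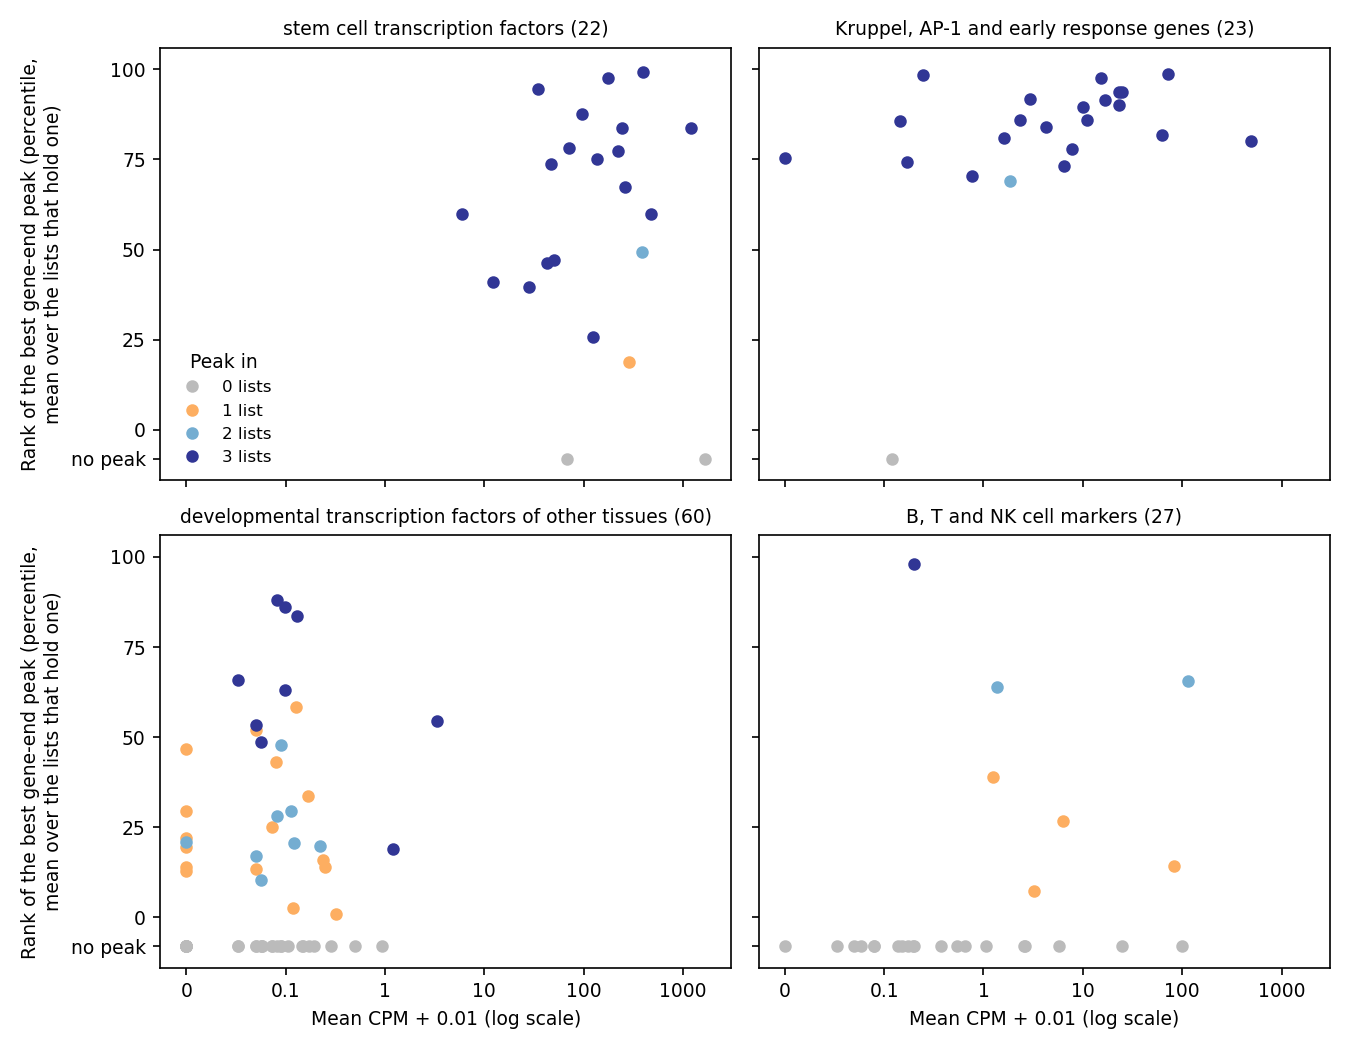
Rank of the best gene-end peak (mean over the lists that hold one, percentile) against mean CPM + 0.01 on a log scale, 1 point per gene, coloured by the number of lists with a peak, for 4 gene lists. Early response genes lie at ranks of 69.1 and above from 0 to 488 CPM, except Egr2; developmental factors gather under 1 CPM with 27 of 60 at no peak; 20 of 27 B, T and NK markers have no peak.

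Genes of mature blood cells split by lineage. Of 21 erythroid and megakaryocyte markers 11 had an end peak in all 3 lists, among them Klf1, the master factor of red cells, with 1.44, 1.69 and 1.60 CPM and a rank of 89.1, and Gp1ba, a platelet receptor gene, with 24.6, 29.6 and 23.1 CPM and a rank of 91.1. The beta-globin gene Hbb-bs had 5.76, 2.05 and 9.33 CPM and an end peak in 1 list. Of 22 neutrophil and monocyte markers 6 were open in all 3 lists and 13 in 1 or 2, and their median was 37.2 CPM. Mpo, the myeloid peroxidase gene, had 725, 338 and 521 CPM with a rank of 55.6, highest in replicate 1 like the sum of its group. Of 27 B, T and NK markers 1 was open in all 3 lists and 20 in none. That gene was Cd3d, of the T cell receptor complex, with a rank of 98.0 and 0.288, 0 and 0.279 CPM. Its peak lay at the far end of the gene and not at the annotated start. The number open in this group was 0 with the annotated start only, 11 with windows of 5 kb and 3 without ATAC replicate 1. Gata3 (86.8, 111 and 99.6 CPM) and Lck (26.9, 24.4 and 23.0 CPM) were expressed with no end peak. None of 11 mast cell, basophil and eosinophil markers was open in all 3 lists, and single libraries stood out: Prss34 had 48.1, 7.22 and 0.418 CPM and Prg2 had 3.60, 1.57 and 59.5. Of 15 stroma and endothelium markers 3 were open in all 3 lists, and Col1a1 had 0.288, 52.4 and 1.11 CPM.

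Housekeeping and regulatory groups were open in shares near or below the 79.2% of expressed genes. The cell cycle group and the Polycomb and trithorax group, both at 78.3%, were close to that share. Not all members reached 10 CPM, the level behind the 79.2%. It was reached by 22 of 23 cell cycle genes, 7 of 10 inhibitors, 18 of 23 Polycomb and trithorax genes and 32 of 38 ribosomal protein genes. Cell cycle genes had end peaks in all 3 lists for 18 of 23 (78.3%) at a median of 84.7 CPM. The proliferation marker Mki67 had 222, 128 and 169 CPM with a rank of 94.4, and Cdk6, which governs exit from quiescence in stem cells, had 1446, 2258 and 1158 CPM. Of 10 cell cycle inhibitors 6 were open in all 3 lists. Cdkn1b (p27) had 135, 379 and 248 CPM with a rank of 88.9 and Cdkn1c (p57) 85.7, 58.4 and 30.8 CPM with a rank of 81.6, while Cdkn2a had no count and an end peak in 2 lists. Of 23 Polycomb and trithorax genes, 18 (78.3%) were open in all 3 lists, with a median rank of 91.0. Kdm6b and Kdm6a, the H3K27 demethylase genes, had no end peak, and Kdm6b had 5 body regions. Of 38 ribosomal protein genes 28 (73.7%) were open in all 3 lists. Their sum was 19410.2, 13314 and 14303 CPM, highest in replicate 1. Rpl27, with a rank of 99.2, had 4.47, 5.42 and 7.73 CPM beside Rps3 with 1711, 1346 and 1419. Reads of ribosomal protein genes can be shared with near-identical pseudogenes, so that the low values in this group are uncertain.

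Genes for sensing outside signals differed by group. Of 25 cytokine and chemokine receptors 21 (84.0%) had an end peak in all 3 lists at a median of 25.1 CPM. Ifngr1, an interferon gamma receptor chain, had 157, 187 and 173 CPM with a rank of 99.2, and Tgfbr1 had 28.0, 25.5 and 32.5 CPM with a rank of 98.5. Il3ra had 0.865, 0.843 and 0.975 CPM and still a rank of 94.5, whereas the lymphoid receptor gene Il7r had 0, 0.602 and 0.975 CPM and no end peak. Of 17 adhesion and niche receptors 10 were open in all 3 lists. Interferon-responsive genes, with a median of 66.0 CPM and 6 CpG, were open in all 3 lists for 12 of 20. Irf1 had 147, 134 and 153 CPM with a rank of 87.1, and Isg15 had 13.0, 15.7 and 12.0 CPM with no end peak.

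The spread between the RNA libraries differed with level, and within a decile it was close between open and closed genes. The median coefficient of variation (CV, the SD divided by the mean) was 173% in decile 1, where a gene typically had its counts in 1 library, 50.8% in decile 5 and 17.2% in decile 10. Within decile 10 it was 17.2% for genes with an end peak in all 3 lists and 16.9% for those with none, and within decile 6 31.7% and 33.1%. Without RNA replicate 1 the median of decile 10 was 10.6%. The ferritin heavy chain gene Fth1 was among the most variable genes of high level, with 147, 1281 and 1730 CPM, lowest in replicate 1. Pdia3, a protein disulfide isomerase gene, had 101, 313 and 679 CPM with an end peak of rank 98.3 in all 3 lists.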

How the data were processed

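Per the submitters' processing notes, reads were aligned to mm10 builds, with STAR 2.0.4, featureCounts 1.4.5, HTSeq 0.8.0 and Partek 6.6 named for RNA-seq and cutadapt 1.16, BWA 0.7.16a and MACS2 for ATAC-seq; no source used here gives their roles, the annotation release or the strand setting. The authors deposited a raw count per Ensembl gene for each RNA library, and a peak list for each ATAC library that was called per sample. Each deposited peak carries the authors' score, fold enrichment (a ratio to background) and −log10 p and q. All peaks had a −log10 q of at least 2.00. Rows that name no gene stayed out of library sizes; 17.2% to 17.5% of the entries were assigned to genes.

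Of 49671 gene IDs, 36130 matched a position in RefSeq's table (GRCm38.p6), 511 by synonym, and 36128 lay on chromosomes 1 to 19, X and Y. CPM were computed with TMM-scaled library sizes (edgeR 4.0.16, R 4.3.3; factors 1.02, 0.941 and 1.04) and the rest in Python 3.11.15 (pandas 2.3.3). On plain library totals, without the TMM factors, 3 counts were 0.442, 0.340 and 0.217 CPM in RNA replicates 1, 2 and 3. Replicate counts differed by more than sampling noise (chi-square per degree of freedom 16.0 to 28.6), so that each counted as its own sample. An open gene had a peak overlapping by at least 1 bp in all 3 lists. The linking of peaks to genes and the deciles were tested on simulated data. No test was made, since 1 group was described; precision is given by the SD over 3 libraries.

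The genes, lists and thresholds were chosen with earlier results of these data known. Named genes are up to 6 members of a list (those that define it, its highest and its exceptions) and, by rank, the genes of highest CPM, the strongest open but silent, the highest expressed without an end peak, those with most body regions and those of highest CV. Hoxd10, Umod, Atf3, Nr4a3 and other members beyond these were named after their values were seen. Alternatives covered scaling, gene and peak filters, windows, thresholds and leaving out each library. Results for some genes are not reported here.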

Additional observations from a re-analysis of the deposited data

How the results depend on the processing

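The top decile had the higher share of end peaks, the better median rank and the denser gene bodies than the lowest decile in all 20 alternatives tried. Each changed 1 choice, except that the alternatives on gene starts also keep only the 20122 genes of known strand. Of 320 values recomputed (16 results under 20 alternatives), 280 stayed within 1 SD over the lists, or within 1.5 times for counts and for values without such an SD, and 40 moved. Many of the 280 could not change. The alternatives on silence, on openness in 2 lists, on expression from 50 CPM and on no peak in at least 2 lists each bear on 1 of the 16 results. They leave the decile shares, ranks and densities as they were. Alternatives on peaks alone likewise leave the CV and the CpG medians unchanged. Splitting only genes of at least 1 CPM in 2 libraries gave, for the lowest decile, an end-peak share of 48.3%, 0.216 body peaks per 10 kb, a median rank of 70.9 and 13 CpG. With protein-coding genes only, the lowest decile had 17.8% and 352 genes were open but silent. With a peak on the end base itself the shares were 73.9% (top decile), 4.63% (lowest) and 2.63% (no count), the lowest decile's rank was 59.3, 285 genes were open but silent and 2062 expressed without an end peak, and 6 HSC identity genes, 2 developmental factors and 0 B, T and NK markers were open in all 3 lists. With windows of 5 kb the shares were 95.3%, 30.3% and 19.5%, the rank was 53.4, the counts were 2134 and 206, and 20 developmental factors and 11 B, T and NK markers were open. Over the 20122 genes of known strand, which hold 425 of the 808 open but silent genes, 686 of the 875 expressed without an end peak and 6 of the 9 open developmental factors, the annotated start alone gave 326 open but silent genes, 4 open developmental factors and 0 open B, T and NK markers. Peaks of −log10 q of at least 5 gave 6.27% for genes with no count and 0.0824 body peaks per 10 kb in the lowest decile. Silence as 0 counts gave 436 open but silent genes, openness in at least 2 lists 1380, and expression from 50 CPM 367 genes without an end peak. Any listed start, an alternative chosen after the data were seen and run over the same 20122 genes without regard to peaks at the other end, gave 92.3%, 343 and 427 for the top share and both counts, so that the 427 are not all among the 875. Leaving out 1 library at a time gave 12.3% to 17.1% for the lowest share, ranks of 47.4 to 54.3 there, CpG medians of 3 to 5, a median CV in the top decile of 10.6% (without RNA replicate 1) to 17.2%, and 1 to 3 open B, T and NK markers. The cause of these shifts was not tested.

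List 3 held the most peaks and the highest shares, but list 1, with more peaks than list 2, had the lower shares in deciles 4 to 10. With the same number of peaks per list the SD of the top share was 3.06 in place of 3.49. Other spreads shrank more under that setting. The SD was 0.435 in place of 2.83 for the lowest share and 0.198 in place of 1.64 for genes with no count. For body peaks per 10 kb in the top decile it was 0.0180 in place of 0.0728. At these RNA depths a level under that of 3 counts cannot be told from 0. Levels per kb of transcript were not run, since no transcript lengths were used here. No paired analysis was possible because 1 group was described with no test, and the RNA and ATAC libraries are separate samples whose numbers do not tie them.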

Other observations

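Histone genes, recognised by name after their values were seen, were open with little RNA. Of 63, 44 had an end peak in all 3 lists, with a median rank of 88.1, while 29 were silent, 3 reached 10 CPM and 17 were both open in all 3 lists and silent. Of all 21188 protein-coding genes, 46.0% had an end peak in all 3 lists, 28.2% were silent and 42.0% reached 10 CPM. Both open in all 3 lists and silent were 352 of the 21188. These genes lie in clusters, and the 44 had 30 distinct best peaks: 27 shared theirs with another histone gene, and 8 of the 17 shared it with one that was not silent. Hist1h2bc had 6.20 CPM ± 1.195 with an end peak of rank 99.1, and Hist2h2be had 16.8 CPM ± 2.34 with a rank of 97.0, which is the same peak as that of Hist2h2ac and Hist2h2ab. Hist1h1b was the highest with 26.1 CPM ± 10.2. Messages of the replication-dependent histone genes end without a poly(A) tail, and the part of this in the counts was not tested.

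The X chromosome had fewer open ends at expressed genes than any autosome. Of 294 X-linked protein-coding genes of at least 10 CPM, 66.0% had an end peak in all 3 lists, compared with 79.6% of 8598 autosomal genes and a range of 76.2% to 84.4% over the autosomes. The shares in lists 1, 2 and 3 were 70.7%, 76.2% and 85.4% on the X and 82.3%, 85.9% and 90.2% on the autosomes. The median levels were 47.2 and 47.3 CPM, and the median promoter CpG were 17 and 22. No source used here gives the sexes of the mice behind the ATAC libraries.

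Among imprinted genes associated with HSC quiescence an end peak in all 3 lists was the exception, as it was over all genes. Of 13, 3 (23.1%) had one (Cdkn1c, Grb10 and Peg3), against 30.7% of all genes and 46.0% of protein-coding genes. An end peak was present in 2 lists for 1 of the 13, in 1 list for 5 and in none for 4. At least 10 CPM was reached by 6 of them. Gnas had 347, 168 and 165 CPM, no end peak and 3 body regions, and Ndn had 18.7, 20.8 and 35.2 CPM and no end peak. H19 had 2.16, 0.963 and 0.905 CPM and Dlk1 had no count.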
